A study of Xenopus tropicalis with 18 samples.

Results

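The thyroid hormone receptor (TR) regions of chromosome 10 were taken from the authors' table of read counts, as all regions that carry the table's code for that chromosome. They numbered 629 of 9867 counted regions. The intestine of stage 54 Xenopus tropicalis tadpoles was the tissue, and TR on chromatin was assayed by immunoprecipitation with sequencing (ChIP-seq). At least 2 libraries had a peak over each counted region of the chromosome. The tadpoles were wild type (WT), TRαKO or TRβKO, knockouts of one or the other receptor gene, and were either left without hormone or kept for 18 h in 10 nM T3, the active thyroid hormone. Each of the 6 groups had 3 libraries, 18 in all, described as biological replicates from different tadpoles. The series text calls the first knockout TRαLKO where the labels say TRαKO, and the alleles of the knockouts, any pooling of animals and the isoforms the antibody recognises are not given in the sources used here.

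TRα and TRβ are nuclear receptors that sit on DNA as partners of the retinoid X receptors. Without hormone they recruit corepressors, and with T3 they recruit coactivators. The tadpole intestine is remodelled at metamorphosis under T3: larval epithelium dies and adult epithelium forms from stem cells. Chromosome 10 carries thra, the gene of TRα, together with rara, a retinoic acid receptor, and nr1d1, a nuclear receptor of the circadian clock, close by.

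Levels are in CPM, the read count of a region scaled to the tags that its library kept after the removal of duplicates, per M tags. A level with ± is the mean and SD over the 3 libraries of a group. Kept tags, in M, ranged over 12.4 to 17.1 in WT without T3 and 2.29 to 2.53 with T3. They ranged over 7.49 to 9.28 and 6.03 to 8.02 in TRαKO, and over 5.22 to 5.80 and 2.76 to 3.28 in TRβKO. WT libraries without T3 also stood apart in their removed duplicates, 2.2 to 2.97% of tags against 7.57 to 22.4% in the other 15 libraries, and in their fragment length, 255 to 283 bp against 295 to 298 bp. Every comparison with these 3 libraries therefore also compares depth, duplicates and fragment length. With T3, duplicates were 21.4 to 22.4% in WT, 7.57 to 10.9% in TRαKO and 15.7 to 16.2% in TRβKO. The comparisons of knockouts with WT under T3 thus also compare depth and duplicates. So does the T3 effect in TRβKO, whose libraries without T3 had more tags and 10.5 to 14.6% duplicates. What part these had was not tested. The genotype could not be checked by the targeted gene: the counted regions at thra kept reads in TRαKO, so none of them marks a deletion.

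Chromosome 10 was the most densely covered chromosome. It held 12 regions per Mb, against 5.70 to 7.58 on the other 9 chromosomes. It is also the most gene-dense, with 21.0 protein-coding genes per Mb, but it had the most regions per gene as well, 57.2 per 100 coding genes against 38.3 to 54.6. All peaks of 39.3% of its regions came from WT without T3, against 26.4 to 36.1% on the other chromosomes. Neither density was computed without such regions, so these ranks may rest on them. Of the 629 regions, 369 overlapped a gene body, 114 lay within 10 kb of a gene and 146 had no gene that close. They were assigned to 320 genes, of which 226 had a single region. The most regions went to c20orf85 with 11, shisa6 with 9, and cdh4 and sox18 with 7 each. The median width was 459 bp, and the median level over all libraries was 1.65 CPM, eighth among the 10 chromosomes.

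With T3, 65 of the 591 tested regions of chromosome 10 rose in WT, a share of 11% beside 10.2% of all tested regions. In TRαKO 59 rose, 9.98% beside 8.6% of all, and in TRβKO 58 rose, 9.81% beside 9.49% of all. Each share lay within or just above the range of the other chromosomes, which was 7.82 to 12.2% in WT, 6.83 to 9.87% in TRαKO and 7.23 to 11.3% in TRβKO. The remaining 38 regions had too few reads to be tested. A call is an adjusted p under 0.05 in edgeR's quasi-likelihood test, adjusted by Benjamini-Hochberg over the 9342 regions tested genome-wide, and this test stands behind every adjusted p below. The median region of the chromosome did not share in the rise in WT, with a log2 difference of 0.02, the same as over all regions. It was 0.49 in TRαKO against 0.46 over all regions, and -0.38 in TRβKO against -0.16. The TRαKO count depends on the scaling: 29 regions rose and 4 fell with TMM scaling, and 28 and 9 with DESeq2, with the median over all regions at 0.07 and -0.09. In WT, DESeq2 and all tags as depth each gave 61 rises and 15 falls, against 65 and 6.

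The regions that rose in WT went from a median level of 0.924 to 9.72 CPM, with log2 differences from 0.45 to 6.26 and a median of 3.39. In TRαKO the median level of its risers went from 1.16 to 3.96 CPM, with a median log2 difference of 1.74. In TRβKO it went from 1.18 to 7.17 CPM, with a median of 2.70. Of the 65 WT risers, 60 kept their call whichever library was left out, as did 33 of 59 in TRαKO and 48 of 58 in TRβKO. In all, 81 regions rose in at least 1 genotype. Of these, 11 were assigned to no gene, and the rest to 60 genes, some known only by a LOC identifier. Of the 81, 42 rose in all 3 genotypes, 15 in WT and TRβKO and 2 in WT and TRαKO. Another 6 rose in WT alone, 15 in TRαKO alone and 1 in TRβKO alone. This split depends on the scaling: with TMM and DESeq2 only 29 and 28 regions rose in TRαKO at all, so fewer than 42 could be shared. Passing the test in 1 genotype and not in another is no test of a difference; that test is given for the differences between T3 effects further on. Of the 81, 66.7% lay in a gene body, against 56.7% of the other tested regions.

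The nuclear receptor genes had 8 regions on the chromosome. All 8 rose in all 3 genotypes: 4 at thra, 2 at rara, 1 at nr1d1 and 1 at hnf4a, which encodes a receptor that maintains gut and liver epithelium. Of all tested regions 10.2% rose in WT, 8.6% in TRαKO and 9.49% in TRβKO. The list was chosen with earlier results of these data known. The leading thra region (chromosome 10, 9096138 to 9097271, in the gene body) held 1.83, 1.81 and 2.75 CPM in WT without T3 and 46.6, 49.0 and 49.0 CPM with T3. In TRαKO it went from 4.50, 4.52 and 4.41 to 18.1, 19.9 and 21.1 CPM, and in TRβKO from 2.92, 4.83 and 5.94 to 36.7, 53.1 and 35.2 CPM. No library with T3 came near one without it, and the TRαKO libraries with T3 lay well below those of WT and TRβKO with T3. The log2 rise was 4.51 ± 0.20 (SE) in WT (adjusted p = 2.53e-34), 2.13 ± 0.19 in TRαKO (adjusted p = 6.91e-15) and 3.19 ± 0.20 in TRβKO (adjusted p = 7.61e-24).

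The 3 other thra regions also rose in all 3 genotypes, to lower levels. The region at 9098324 to 9098804 went from 0.850 ± 0.137 to 18.2 ± 3.24 CPM in WT, from 2.82 ± 1.03 to 8.01 ± 0.692 CPM in TRαKO and from 2.11 ± 0.440 to 19.2 ± 1.36 CPM in TRβKO. With T3 this region was as high in TRβKO as in WT. The regions at 9104506 and 9147455 reached 7.64 ± 2.44 and 9.04 ± 4.80 CPM in WT with T3, and 8.36 ± 1.06 and 10.4 ± 3.79 CPM in TRβKO with T3, from 1.22 CPM or less without it. In TRαKO with T3 they reached 2.74 ± 1.23 and 3.78 ± 1.65 CPM, and the second of these overlapped WT.

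At rara, whose product binds retinoic acid, the stronger region (8790066 to 8790612, gene body) held 1.83, 1.69 and 1.13 CPM in WT and 34.5, 38.3 and 31.1 CPM with T3. It went from 1.67, 3.55 and 3.60 to 10.3, 9.45 and 10.1 CPM in TRαKO, and from 1.64, 2.59 and 1.92 to 21.1, 25.6 and 17.8 CPM in TRβKO. The 3 groups with T3 did not overlap and stood in the order WT, TRβKO, TRαKO. The second rara region, at 8776770, rose by a log2 of 3.34 ± 0.37 in WT, 2.67 ± 0.40 in TRβKO and 1.49 ± 0.40 in TRαKO (adjusted p = 0.00648). The TRαKO call was lost without any of 3 libraries, TRαKO without T3 replicate 1 (adjusted p = 0.0604) or replicate 3 (0.0810) or TRαKO with T3 replicate 1 (0.0836), and with TMM (1.11, adjusted p = 0.123) and DESeq2 (0.96, adjusted p = 0.0833).

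The nr1d1 region (9041091 to 9041551), in the gene of the repressor REV-ERBα, held 1.76, 0.818 and 0.647 CPM in WT and 15.7, 17 and 19.2 CPM with T3. In TRβKO it went from 0.841 ± 0.239 to 10.7 ± 1.78 CPM. The rise in TRαKO was small, from 1.80 ± 0.644 to 4.27 ± 0.890 CPM (log2 1.28 ± 0.35, adjusted p = 0.00843). It did not pass without TRαKO without T3 replicate 2 (adjusted p = 0.123) or TRαKO with T3 replicate 1 (adjusted p = 0.0871), nor with TMM (log2 0.89) or DESeq2 (0.74). At hnf4a (38483007) the level went from 0.888 ± 0.209 to 4.98 ± 1.91 CPM in WT, from 0.845 ± 0.513 to 3.30 ± 0.442 CPM in TRαKO and from 1.03 ± 0.257 to 6.84 ± 1.65 CPM in TRβKO.

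**Figure D1:**
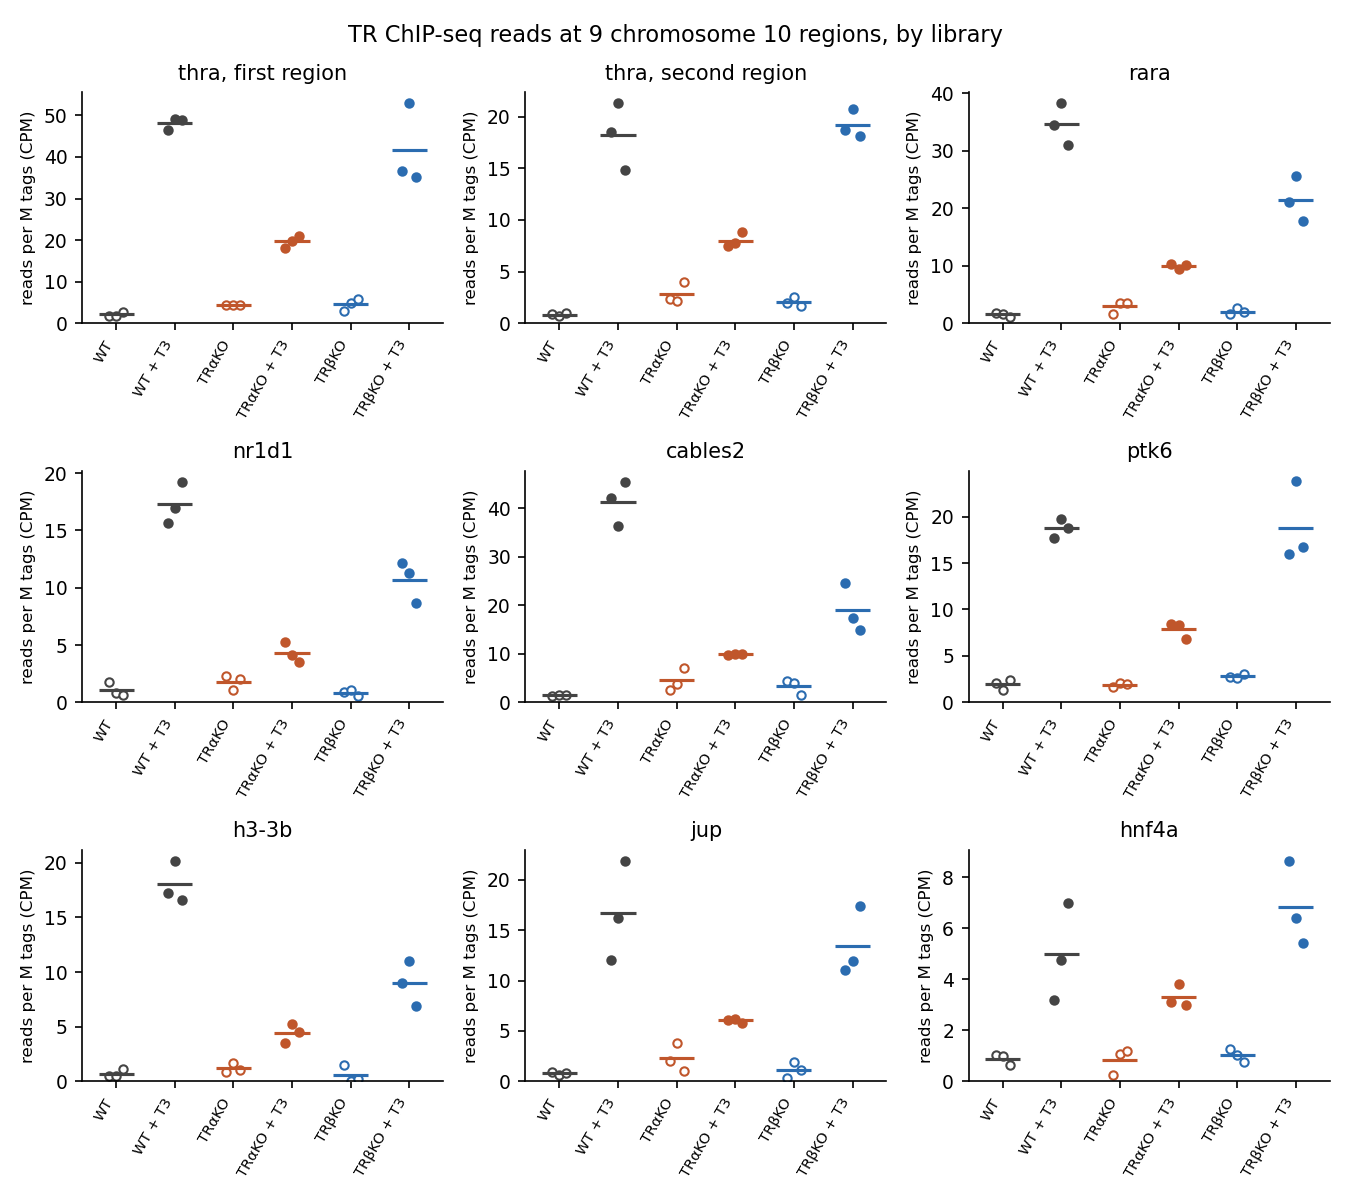
Level in CPM (linear axis from 0) of 9 chromosome 10 regions in each of the 18 libraries; open points are libraries without T3, filled points with T3, and lines are group means. At thra, rara, nr1d1, cables2 and h3-3b the TRαKO libraries with T3 lie above those without T3 but below the WT libraries with T3, as at the leading thra region with 19.7 against 48.2 CPM.

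Among genes of coregulators and chromatin proteins, 2 of 6 regions rose in WT, 1 in TRαKO and 2 in TRβKO, where 10.2, 8.6 and 9.49% of all tested regions rose. The first was h3-3b, a gene of the replacement histone H3.3 (44807559 to 44808045). It held 0.512, 0.467 and 1.13 CPM in WT and 17.3, 20.2 and 16.6 CPM with T3, a log2 rise of 4.69 ± 0.38 (adjusted p = 1.27e-18). With T3 it reached 4.4 ± 0.868 CPM in TRαKO and 8.96 ± 2.04 CPM in TRβKO, so the 3 genotypes did not overlap. The second was smarcd2, a subunit of SWI/SNF chromatin remodelling complexes (15742922, within 10 kb of the gene), which went from 0.320 ± 0.150 to 11.1 ± 2.83 CPM in WT and from 0.563 ± 0.501 to 5.52 ± 2.95 CPM in TRβKO. In TRαKO it stood at 0.813 ± 0.568 and 2.04 ± 0.177 CPM, a difference that did not pass the test. No call was made with T3 at the regions of bptf, ezh1, hdac5 or med1.

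Of the 6 regions of gut epithelium genes, 3 rose in WT, 3 in TRαKO and 4 in TRβKO, at gata5 and hnf4a. Of all tested regions 10.2, 8.6 and 9.49% rose in these genotypes. GATA5 is a transcription factor of the gut endoderm, and its gene had 4 regions. The region at 4922621 held 1.24, 0.993 and 0.809 CPM in WT and 12.4, 15.4 and 14.4 CPM with T3, and reached 3.56 ± 1.08 CPM in TRαKO with T3 and 5.52 ± 1.36 CPM in TRβKO with T3. Its TRαKO call was lost without TRαKO without T3 replicate 1 (adjusted p = 0.0567), without TRαKO with T3 replicate 3 (0.0772) and with TMM (0.121) and DESeq2 (0.0582). The region at 4927022 reached 11.4 ± 4.48, 5.08 ± 0.830 and 5.22 ± 1.09 CPM in WT, TRαKO and TRβKO with T3, from 1.04 CPM or less. A region farther along the gene, at 5004972, went the other way in WT, from 2.49 ± 1.18 to 1.09 ± 0.185 CPM, which did not pass, and rose in TRβKO from 0.621 ± 0.563 to 2.86 ± 1.30 CPM (log2 2.18 ± 0.67, adjusted p = 0.0169), a call lost without TRβKO without T3 replicate 2 (0.170) or TRβKO with T3 replicate 3 (0.166). The regions of gata5 thus did not move as 1 unit.

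In the remaining lists the calls fell on single genes. The cell cycle region that rose lay within 10 kb of cdc6, which licenses replication origins. Its level went from 1.54 ± 0.387 to 16.2 ± 2.37 CPM in WT, from 1.29 ± 0.191 to 5.15 ± 0.595 CPM in TRαKO and from 1.93 ± 0.275 to 12.9 ± 4.91 CPM in TRβKO. At map1lc3a, which encodes a protein of the autophagosome membrane, it went from 0.817 ± 0.217 to 6.56 ± 2.14 CPM in WT, and rose in both knockouts to 4.41 ± 0.388 and 4.86 ± 1.48 CPM. Among the 5 regions of developmental transcription factors none rose in WT or TRβKO and 1 rose in TRαKO, at cebpb (log2 1.45 ± 0.45, adjusted p = 0.0255), lost with TMM (0.220) and DESeq2 (0.104) or without any of 4 libraries, TRαKO without T3 replicate 2 (0.166) or 3 (0.126) or TRαKO with T3 replicate 2 (0.0831) or 3 (0.0996). Over all 17 lists, 40 regions of 30 genes lay on the chromosome. Of the 39 tested, 16 rose in WT, 14 in TRαKO and 17 in TRβKO, beside 10.2, 8.6 and 9.49% of all tested regions, and none fell. The lists overlap and were chosen with earlier results known, so nothing particular to them follows from these counts.

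Outside the lists the leading region was in cables2, which encodes a partner of cyclin-dependent kinases (4774417 to 4774960, gene body). It held 1.32, 1.58 and 1.46 CPM in WT and 42.2, 36.4 and 45.5 CPM with T3. In TRαKO it held 2.57, 3.88 and 7.08 CPM and then 9.85, 9.88 and 9.96 CPM, and in TRβKO 4.39, 3.97 and 1.53 CPM and then 24.6, 17.4 and 14.9 CPM. The 3 genotypes with T3 were fully apart, and 5 of the 6 knockout libraries without T3 lay above the 3 of WT. The log2 rise was 4.81 ± 0.26 in WT, 2.50 ± 0.27 in TRβKO and 1.14 ± 0.24 in TRαKO (adjusted p = 0.000291), the smallest among the TRαKO risers. The TRαKO rise held whichever library was left out but not with TMM (0.75, adjusted p = 0.0678) or DESeq2 (0.59, adjusted p = 0.105).

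Among the other risers in all 3 genotypes were regions at ptk6, jup, ahcy and g6pc.1. PTK6 is a tyrosine kinase of differentiating gut epithelium, and its region (1944662) held 17.7, 19.8 and 18.8 CPM in WT with T3, 8.48, 8.33 and 6.80 CPM in TRαKO and 15.9, 23.8 and 16.7 CPM in TRβKO, from 1.91 to 2.80 CPM on average without T3. Here WT and TRβKO overlapped and TRαKO stood below both. The jup region (7367261) lay within 10 kb of the gene, which encodes plakoglobin in cell junctions. There WT went from 0.781 ± 0.185 to 16.7 ± 4.93 CPM, TRαKO from 2.3 ± 1.37 to 6.04 ± 0.209 CPM and TRβKO from 1.14 ± 0.766 to 13.5 ± 3.45 CPM. The TRαKO rise at jup was lost without TRαKO without T3 replicate 3 (adjusted p = 0.0546), with TMM (0.0877) and with DESeq2 (0.0821). The ahcy region (41230670) lay within 10 kb of the gene, whose enzyme clears S-adenosylhomocysteine. There TRβKO with T3 was level with WT, 13.0 ± 0.685 and 12.5 ± 3.68 CPM, and TRαKO reached 4.76 ± 0.829 CPM. The region near g6pc.1, a gene of the glucose-6-phosphatase family, reached 10.6 ± 0.973, 4.81 ± 0.387 and 5.82 ± 1.46 CPM in WT, TRαKO and TRβKO.

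One of the shared risers reached the WT level in TRαKO. At ubald2 the means with T3 were 4.37 ± 0.430 CPM in TRαKO and 4.37 ± 0.736 CPM in WT, the closest of the 42 shared risers, and at cables2 TRαKO had 23.9% of the WT mean, the lowest. Over the 42 the median was 39.1% in TRαKO, and all 42 means lay below WT. For TRβKO the median was 68.9%, with 32 of 42 below WT, from 26.8% at a sox18 region to 137% at hnf4a. Tested one by one, 32 of the 42 were lower in TRαKO than in WT with T3, and 6 were lower in TRβKO, beside 7.3 and 3.65% of all tested regions. Summed over the 42, the level went from 43.7 ± 3.14 to 591 ± 11.5 CPM in WT, from 60.6 ± 3.94 to 217 ± 1.99 CPM in TRαKO and from 59.6 ± 5.81 to 418 ± 49.4 CPM in TRβKO. These regions were chosen for their rise in the same libraries, so the counts and sums describe them and show nothing independent. The set of 42 is also that of kept tags as depth, and with TMM or DESeq2 fewer regions could be shared.

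**Figure D2:**
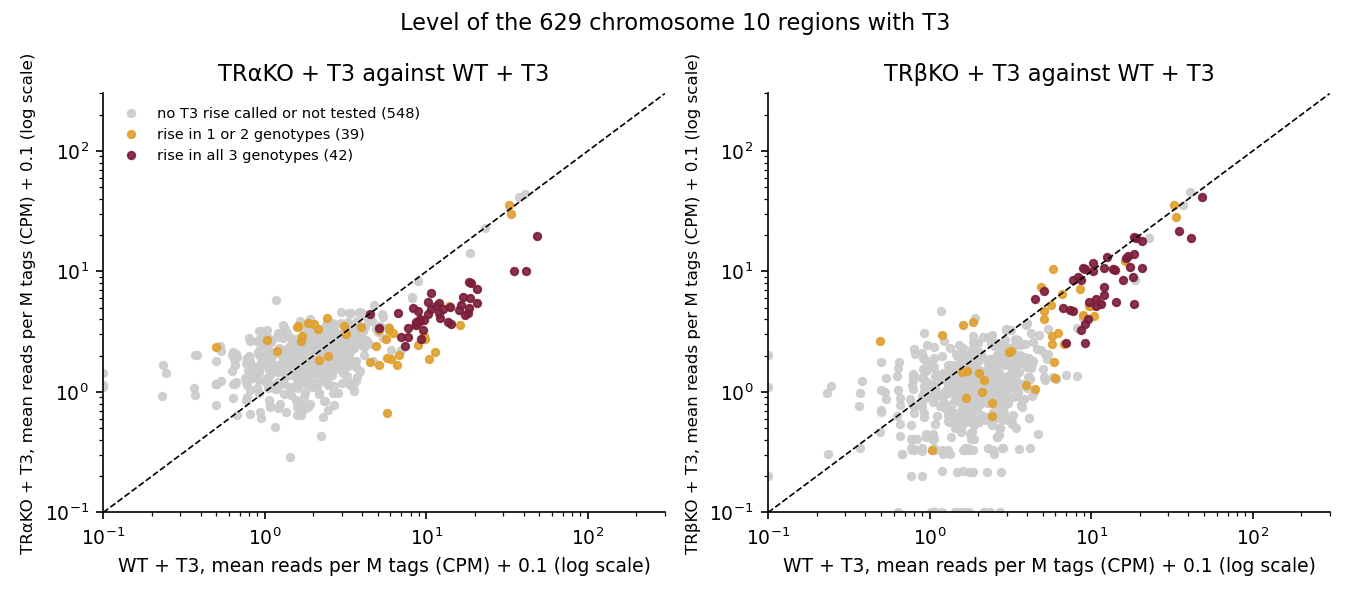
Mean level with T3 of the 629 regions in TRαKO (left) and TRβKO (right) against WT, in CPM + 0.1 on log axes; colours mark the 42 regions called higher with T3 in all 3 genotypes, the 39 called in 1 or 2, and the other 548, and the dashed line marks equal levels. In TRαKO the 42 lie below the line, or at ubald2 on it, with a median of 39.1% of the WT level, and closer to it in TRβKO, with 68.9%, while many of the other regions lie below it in TRβKO.

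The T3 effect itself was smaller in TRαKO than in WT at 32 regions of the chromosome (5.41%, beside 5.18% of all tested regions) and larger at 8 (1.35%, beside 1.11% of all). With all tags as depth the counts were 21 and 20. Counting regions whose peaks all came from WT without T3 favours larger effects in the knockouts. The difference was -3.67 ± 0.36 on the log2 scale at cables2 (adjusted p = 1.82e-13), -2.38 ± 0.28 at the leading thra region (adjusted p = 2.92e-10), -2.71 ± 0.35 at the stronger rara region (adjusted p = 7.55e-09) and -2.71 ± 0.50 at nr1d1 (adjusted p = 3e-05). Between TRβKO and WT the T3 effect was smaller at 11 regions (1.86%, beside 1.52% of all) and larger at 2 (0.338%, beside 0.268% of all), and with all tags as depth at 4 and 2, with DESeq2 at 8 and 0. Among the 11 were cables2, by -2.30 ± 0.39 (adjusted p = 5.82e-05), and the leading thra region, by -1.31 ± 0.29 (adjusted p = 0.0047), which did not pass without TRβKO without T3 replicate 3 (-1.09, adjusted p = 0.0574). Of the 11, 7, 6, 6 and 7 were called without WT without T3 replicate 1 or 2, WT with T3 replicate 2 and TRβKO without T3 replicate 2, and the 2 larger effects became 0 or 1 without any of 7 libraries. For TRαKO the 8 larger effects became 4 without any of the 3 WT libraries without T3 or without TRαKO with T3 replicate 1, and 5 without its replicate 2. The differences for the 2 knockouts share the WT libraries and are not independent.

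The risers were not spread evenly. The stretch from 5 to 10 Mb held 69 of the 629 regions but 19 of the 65 WT risers, 17 of the 59 in TRαKO and 19 of the 58 in TRβKO. Of its 65 tested regions 29.2% rose in WT. Some stretches with fewer tested regions had a higher share, such as 66.7% of 9 on chromosome 2 and 52.4% of 21 on chromosome 1. There were 294 stretches of 5 Mb with a tested region on the 10 chromosomes. Among them the stretch from 5 to 10 Mb had the most WT risers by number, although it was 40th by tested regions. The median stretch had 2. Next came stretches of chromosomes 3 and 5 with 15 each. Inside it lay 2 groups of neighbouring risers, each with gaps under 100 kb: 5 from rara to cdc6 (8776770 to 8856172) and 7 over msl1, nr1d1, thra and LOC116408038 (9004354 to 9217889). MSL1 is a subunit of a histone H4 acetyltransferase complex. Another group of 5 ran from cables2 to gata5 (4774417 to 5005364). Of the 81 risers, 41 (50.6%) had another riser within 100 kb, and of all 629 regions 88.4% had another region that close; what share even spacing would give was not computed. The stretch with most regions, the first 5 Mb with 147, had 12 WT risers, 9.09% of its tested regions.

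**Figure D3:**
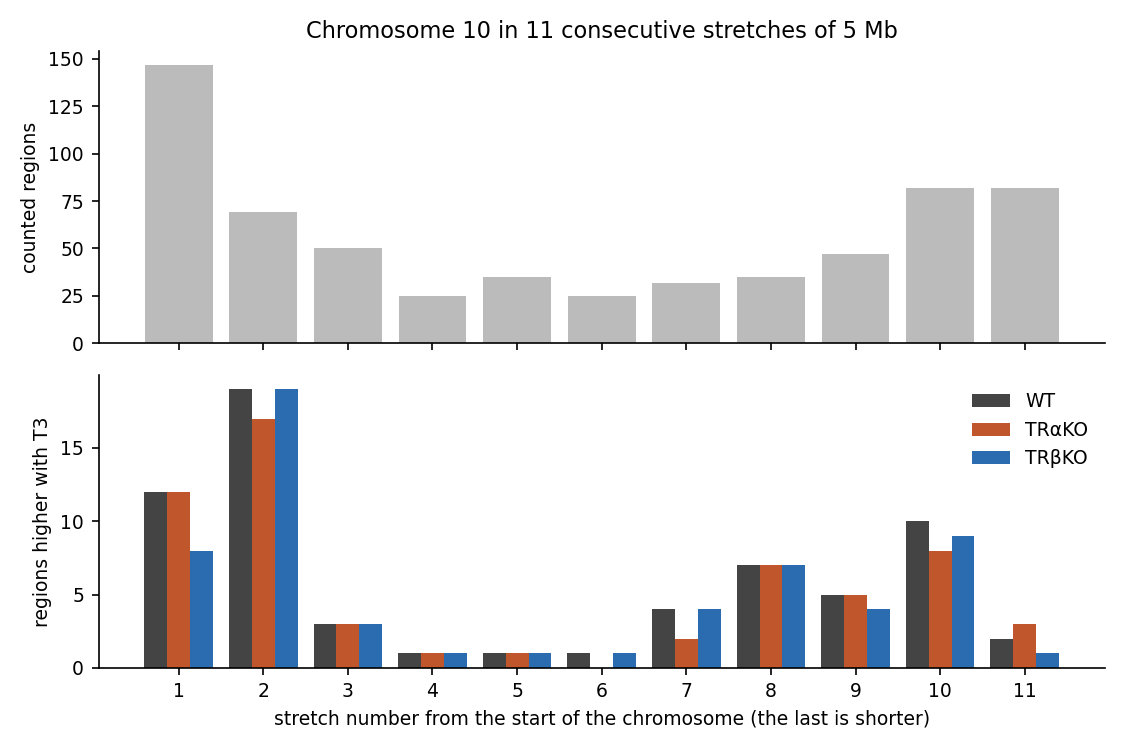
Number of counted regions (top) and of regions called higher with T3 in WT, TRαKO and TRβKO (bottom) in 11 consecutive stretches of 5 Mb of chromosome 10, numbered from its start, the last one shorter. The second stretch has 69 regions and 17 to 19 risers per genotype, while the first has 147 regions and 8 to 12.

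Fewer regions were called lower than higher with T3. In WT 6 fell, 1.02% beside 1.08% of all tested regions. All peaks of 247 of the 629 regions came from WT without T3, and counting such regions favours falls in WT. In 3 of the 6 WT falls a group had 3 reads or fewer, and 1 of the 6 kept its call whichever library was left out. In TRαKO none fell, beside 0.0749% of all; 138 of its 591 tests, rises and falls together, had an unadjusted p under 0.05, and TMM and DESeq2 called 4 and 9 falls. In TRβKO 24 fell, 4.06% beside 2.27% of all, and the range on the other chromosomes was 0.427 to 4.37%. With TMM scaling 39 fell in TRβKO beside 58 rises, and with DESeq2 36 beside 57. In 14 of the 24 a group had 3 reads or fewer, while 4 of the others were regions of LOC101731736 with means of 28.1 to 59.3 CPM without T3. Of the 24, 6 kept their call whichever library was left out. The WT count changed with single libraries: it was 3 or 2 without WT without T3 replicate 1 or 2, and 11 or 18 without WT with T3 replicate 2 or 3. DESeq2 gave 15 falls in WT.

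The fall in WT that met the rule for naming was at nol11, which encodes a factor of ribosome production (51291969). It held 3.58, 3.39 and 2.43 CPM without T3 and 0.803, 0 and 1.31 CPM with T3 (log2 -2.16 ± 0.67, adjusted p = 0.0182). Its call was lost without WT without T3 replicate 1 (adjusted p = 0.0598) or replicate 2 (0.0536) or without WT with T3 replicate 2 (0.172). In TRβKO 2 of the 3 regions of cacng5, a calcium channel subunit gene, fell. The region at 51011870 held 3.66, 3.62 and 4.21 CPM without T3 and 0.693, 0.610 and 1.09 CPM with T3 (log2 -2.26 ± 0.66, adjusted p = 0.00964), a call lost without TRβKO with T3 replicate 2 (adjusted p = 0.0582). The region at 51021286 fell from 2.97 ± 0.681 to 0.550 ± 0.522 CPM (log2 -2.37 ± 0.70, adjusted p = 0.0104), a call lost without TRβKO with T3 replicate 3 (adjusted p = 0.0962). In TRαKO the first of these went the other way, from 0.792 ± 0.480 to 2.56 ± 0.603 CPM (adjusted p = 0.0404), which did not pass with TMM (0.249) or without WT without T3 replicate 1 (0.0518), TRαKO without T3 replicate 1 (0.250) or 3 (0.0838) or TRαKO with T3 replicate 2 (0.133) or 3 (0.145).

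Without T3 the number of regions at which the knockouts differed from WT depended on the fit. All peaks of 247 of the 629 regions came from WT without T3, and counting such regions favours lower calls in the knockouts. TRαKO was higher at 8 (1.35%, beside 1.65% of all tested regions) and lower at 11 (1.86%, beside 1.1% of all). TRβKO was higher at 10 (1.69%, beside 2.07% of all) and lower at 23 (3.89%, beside 1.88% of all). Both splits follow the scaling: with TMM TRαKO was higher at 17 and lower at 4, and TRβKO higher at 15 and lower at 8, DESeq2 gave 15 and 6, and 17 and 20, and all tags as depth gave 6 and 23, and 7 and 31. Fitting only the libraries compared gave 70 lower in TRαKO and 60 in TRβKO, and thinning to the shallowest library gave 0 in each. The lower counts also moved with single libraries, to between 3 and 18 in TRαKO and between 1 and 27 in TRβKO, where the 23 became 1, 6 and 10 without WT without T3 replicates 1, 2 and 3, and 9, 6 and 5 without TRβKO without T3 replicates 1, 2 and 3. For TRαKO the 11 became 3, 3 and 5 and 5, 6 and 6 without the same replicates of WT and TRαKO, and 18 without WT with T3 replicate 3. The higher counts fell to 5 for TRαKO without replicate 2 of either group without T3, and for TRβKO to 6 without WT without T3 replicate 1 and to 5 without TRβKO without T3 replicate 2.

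The higher regions included risers with T3. At the leading thra region the level without T3 was 2.13 ± 0.538 CPM in WT, 4.48 ± 0.0626 CPM in TRαKO (log2 1.08 ± 0.23, adjusted p = 0.00082) and 4.56 ± 1.52 CPM in TRβKO (log2 1.11 ± 0.24, adjusted p = 0.00189). All 6 knockout libraries lay above the 3 of WT. The TRβKO call was lost without TRβKO without T3 replicate 3 (adjusted p = 0.0573). At cables2 TRαKO was higher by 1.61 ± 0.28 (adjusted p = 3.73e-05) and TRβKO by 1.18 ± 0.32 (adjusted p = 0.0174), the latter lost without WT without T3 replicate 1 (0.0709) or TRβKO without T3 replicate 1 (0.158) or 2 (0.133). Lower in both knockouts was a region of rab11fip4, a gene of membrane traffic (52156621), with 3.95, 4.03 and 3.72 CPM in WT, 1.16, 1.51 and 1.07 CPM in TRαKO and 1.64, 0.863 and 1.53 CPM in TRβKO. Its groups did not overlap, but the call was near the threshold (adjusted p = 0.0154 and 0.0345) and was lost with TMM in each (0.0754 and 0.0732). For TRαKO it was lost without any of 4 libraries, WT replicate 1 or 2 or TRαKO replicate 1 or 3 without T3 (adjusted p from 0.0649 to 0.0958), and for TRβKO without any of the 6 libraries compared (from 0.0722 to 0.179).

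With T3 each knockout was lower than WT at 49 regions. For TRαKO these were 8.29% of the tested regions, beside 7.3% of all, with a median level over all libraries of 4.35 CPM. For TRβKO they were 8.29% as well, beside 3.65% of all, with a median level of 1.91 CPM. The 2 comparisons share the WT libraries with T3. Chromosome 10 had the highest share of lower regions for both; on the others it was 5.79 to 8.22% for TRαKO and 1.17 to 4.85% for TRβKO. In 19 of the 49 TRβKO cases a group had 3 reads or fewer. Higher than WT with T3 were 2 regions in TRαKO (0.338%, beside 1.08% of all) and 2 in TRβKO (0.338%, beside 0.578% of all), in both cases at tom1l1 and LOC100491906. The latter region (9790295) held 2.05, 1.75 and 2.02 CPM in WT without T3 and no read in the 3 WT libraries with T3, and was named after its values were seen. The TRβKO counts of 49 lower and 2 higher were 15 and 2 with TMM and 13 and 4 with DESeq2, and the 49 became 24 to 49 without single libraries: 27 without WT with T3 replicate 1, 31 without replicate 3, and 29, 27 and 24 without TRβKO with T3 replicates 1, 2 and 3. The 2 higher in TRβKO became 1 without any of these 5 libraries, and the 2 higher in TRαKO became 6, 5 and 4 without WT with T3 replicates 1, 2 and 3 and 4 without TRαKO with T3 replicate 1.

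Among the lower regions named for TRαKO with T3, smarcd2 and nfatc2 differed most. Next came cables2 and h3-3b, with log2 differences of -2.06 ± 0.22 and -2.04 ± 0.33. At nfatc2, the gene of a calcium-regulated transcription factor (35369290), WT held 18.5, 12.3 and 17.5 CPM with T3, TRαKO 4.36, 3.53 and 2.66 CPM and TRβKO 14.5, 12.2 and 9.43 CPM. TRαKO stood apart from WT there (log2 -2.17 ± 0.32, adjusted p = 2.45e-07). For TRβKO the 6 lower regions named by the rule were at adap2, phactr3, cep112, tanc2, rbm12 and vapb. The first 4 were not called higher with T3 in any genotype, rbm12 rose with T3 in WT, and vapb in WT and TRαKO. The TRβKO calls at cep112, rbm12 and vapb were each lost without any of 4 libraries. At adap2, named after a GTPase-activating protein (51926249), WT with T3 held 3.21, 6.32 and 2.62 CPM and TRβKO 0, 0 and 0.726 CPM, 2 reads in all. At phactr3 (3418752), a gene of an actin-binding regulator, WT held 6.42, 5.14 and 2.19 CPM and TRβKO 1.04, 0 and 0 CPM, 3 reads in all. At tanc2 (16847086), a scaffold protein gene, WT held 5.22, 5.53 and 7.0 CPM and TRβKO 0.346, 2.44 and 0.726 CPM (log2 -2.25 ± 0.53, adjusted p = 0.00523). At these regions the TRαKO means with T3, 3.35, 1.69 and 2.15 CPM, lay between those of WT and TRβKO.

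The tom1l1 region (24802262), in a gene of endosomal sorting, was higher in the knockouts. It held 0, 2.77 and 0.438 CPM in WT with T3 but 4.11, 6.91 and 5.97 CPM in TRαKO and 4.50, 5.18 and 3.99 CPM in TRβKO. The knockouts did not overlap WT (log2 2.35 ± 0.56, adjusted p = 0.00201 for TRαKO, and 2.05 ± 0.62, adjusted p = 0.0366 for TRβKO). The TRβKO call was lost without any of 5 libraries, with adjusted p from 0.0533 without TRβKO with T3 replicate 3 to 0.198 without WT with T3 replicate 1. The TRαKO call held whichever library was left out. The other region assigned to tom1l1 (24785149, within 10 kb) went the other way in TRβKO, with 2.74 ± 0.640 CPM in WT with T3 and 2 reads in all in TRβKO with T3 (adjusted p = 0.0185, lost without TRβKO with T3 replicate 1, 0.0764, or 2, 0.0942).

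In TRβKO with T3 the median region of the chromosome was low against WT with T3. The median log2 difference from WT with T3 was -0.79 over its tested regions and -0.30 over all regions, and the other chromosomes lay between -0.51 and -0.04. With TMM and DESeq2 it was -0.50 and -0.49, where the median over all regions was -0.0015 and 0.02; scaling shifts every region alike and cannot change the gap. Without T3 the chromosome was also lowest of the 10 for TRβKO (-0.40 against -0.18 over all) and for TRαKO (-0.42 against -0.28), and it was lowest for TRαKO with T3 (-0.06 against 0.04). In TRβKO with T3, 116 to 131 of the 629 regions had no read, against 62 to 73 in WT with T3, which was sequenced less deeply.

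**Figure D4:**
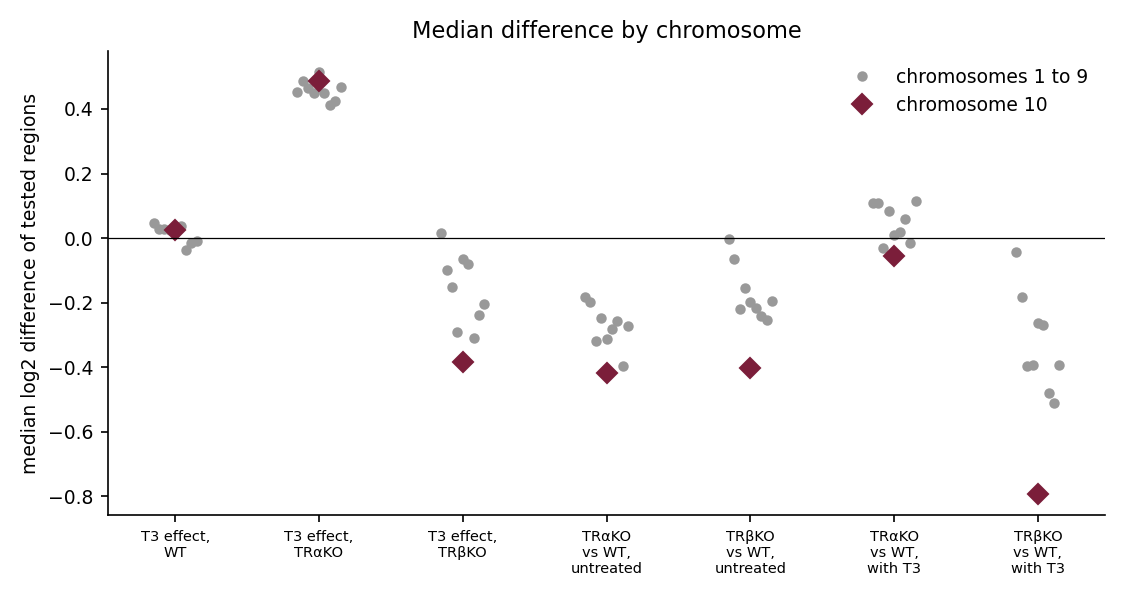
Median log2 difference of the tested regions in 7 contrasts, on a linear axis, for chromosome 10 (diamonds) and each of chromosomes 1 to 9 (points). Chromosome 10 lies among the others for the T3 effect in WT and TRαKO and farthest below them for TRβKO against WT with T3, at -0.79 against -0.51 to -0.04.

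This difference was not even along the chromosome. In the stretches of 5 Mb the median difference of TRβKO from WT with T3 was -1.05 in the first, and -1.25 and -1.07 in the last ones, against -0.38 to -0.98 in those between. The other chromosomes had the same pattern: regions within 5 Mb of a chromosome end had a median of -0.75 on the other 9 chromosomes, and the inner regions -0.18. The regions of chromosome 10 span the least, 52.4 Mb, and 45.8% of its regions lay within 5 Mb of an end, against 16.2 to 28.8% elsewhere. Compared zone by zone, it was still the lowest for TRβKO with T3, at -1.13 near the ends (others -1.05 to -0.46) and -0.51 in the inner part (others -0.39 to 0.02). Of its regions near the ends 12.2% were called lower, against 5.83% on the other chromosomes, and of the inner regions 5.18% against 2.54%. For the knockouts without T3 it was no longer the lowest in either zone: -0.65 and -0.20 for TRαKO and -0.66 and -0.10 for TRβKO lay within the other chromosomes' ranges. For TRαKO with T3 it was the lowest in the inner part, at -0.10 (others -0.01 to 0.19). Near the ends its median of 0.01 lay within the others' range of -0.23 to 0.13. This comparison of zones was added after the values had been seen and carries no test.

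**Figure D5:**
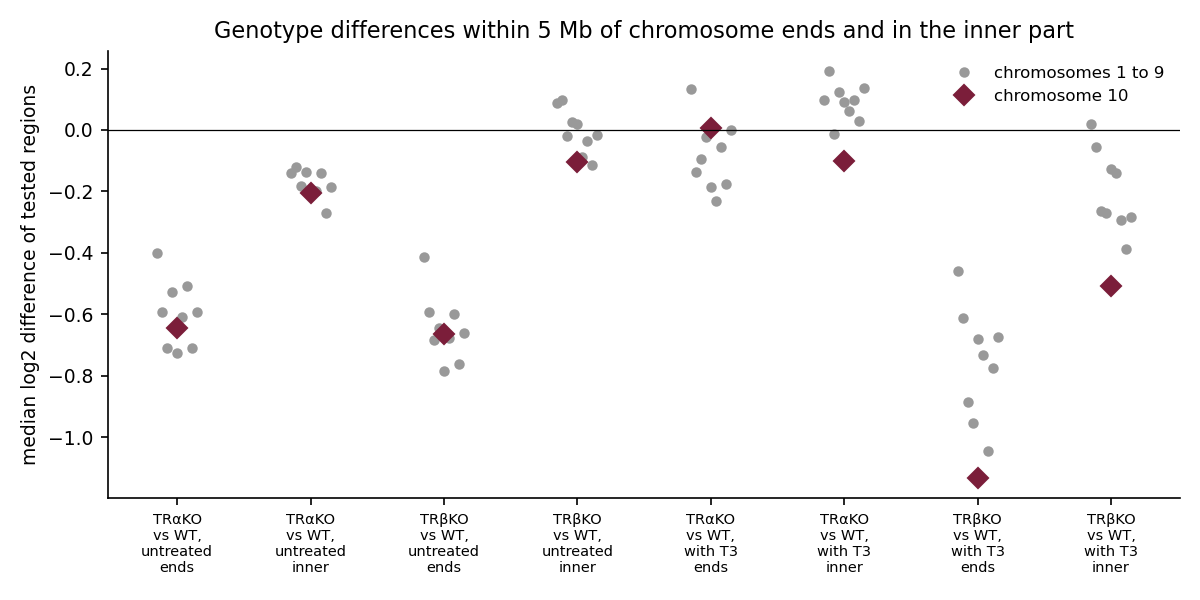
Median log2 difference between knockout and WT, on a linear axis, of regions within 5 Mb of a chromosome end (ends) and of all others (inner), for chromosome 10 (diamonds) and chromosomes 1 to 9 (points). On all 10 chromosomes the ends are lower than the inner part in both contrasts without T3 and for TRβKO with T3, and chromosome 10 lies below all others in both zones for TRβKO with T3, at -1.13 and -0.51.

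The share of all region reads that fell on chromosome 10 gave a measure with 1 value per library. It was 7.06, 7.0 and 6.95% in WT and 7.14, 7.11 and 6.92% with T3. In TRαKO it was 6.71, 6.99 and 6.63%, and 6.82, 6.73 and 6.66% with T3. In TRβKO it was 6.80, 6.58 and 6.61%, and 5.47, 5.74 and 5.29% with T3. The TRβKO libraries with T3 lay below all 15 others. Within treatment, TRβKO was 0.951 percentage points below WT (an exact permutation test over 400 arrangements, two-sided, gave p = 0.005, the smallest possible, and 0.00833 adjusted over the 10 chromosomes). It was 0.342 points without T3 and 1.56 with T3, where 3 libraries against 3 cannot give an exact permutation p under 0.1. This was the largest drop of the 10 chromosomes, of which 9 passed in 1 direction or the other. TRαKO was 0.275 points below WT (exact permutation p = 0.01, adjusted 0.025), but as an unweighted median log2 difference it did not pass (-0.0831, exact permutation p = 0.13). Both genotype comparisons were added after the data had been seen.

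The T3 effect on this share did not pass the test. Within genotype it was -0.383 points (exact permutation p = 0.0542 over 8000 arrangements, two-sided), made up of 0.0536 in WT, -0.0386 in TRαKO and -1.16 in TRβKO, where 3 libraries against 3 cannot give less than p = 0.1. The T3 change in TRβKO minus that in WT was -1.22 points (exact permutation p = 0.1). Reads on unplaced scaffolds and the mitochondrion took 3.39 to 3.72% in TRβKO with T3, against 1.5 to 1.76% in TRβKO without T3 and 1.65 to 1.76% in WT with T3. Over the regions of the 10 chromosomes alone, TRβKO was 0.898 points below WT. The 4 thra regions made up 4.07% of the chromosome's reads in WT with T3 and 5.95% in TRβKO with T3. Without them the T3 effect on the share was -0.584 points, but leaving out risers from chromosome 10 alone favours a lower share with T3. Without the regions of LOC101731736, chosen after their values were seen, the T3 effect on the share was -0.0408 points. In TRβKO those regions went from 19.2 to 12.3% of the chromosome's reads with T3, so part of its change of -1.16 points lies in them.

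Regions outside the 81 risers, 548 in number, summed to 1243 ± 12.4 CPM in WT and 1196 ± 36.8 CPM with T3, to 963 ± 21.9 and 1196 ± 53.8 CPM in TRαKO, and to 1005 ± 34.6 and 723 ± 30.2 CPM in TRβKO. The sum of TRβKO with T3 was the lowest of the 6 groups. The 548 are what is left once every region called higher with T3 in these libraries is taken out, so the split itself favours low sums with T3, and these sums and the peak counts by the same split are a description only. The risers went from 202 ± 11.2 to 613 ± 65.9 CPM in TRβKO. Among them are 2 regions of LOC101731736 called higher in WT alone, whose means went from 37.7 and 50.1 to 28.2 and 35.7 CPM in TRβKO. The 81 risers held 45.8% of the chromosome's reads in TRβKO with T3, against 41.5% in WT and 24.2% in TRαKO with T3.

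The authors' peak calls, made per library, gave a different order from the counts. Regions with a peak in 2 or more libraries of a group numbered 367 in WT and 47 in WT with T3, 15 and 127 in TRαKO, and 23 and 29 in TRβKO. With peaks of -log10 q of at least 5 the WT numbers were 40 and 32. Since kept tags differed between the groups, these numbers give no order of binding. Of the 81 risers 12 had such peaks in WT without T3 and 46 with T3, and of the other 548 regions 355 and 1. In TRαKO with T3, 43 of the risers and 84 of the others had such peaks, and counting such regions favours rises in TRαKO. All peaks of 247 regions came from WT without T3, 39.3% of the chromosome's regions and the highest share of the 10 chromosomes (others 26.4 to 36.1%); 244 of them were not risers. The peak with the highest -log10 q on the chromosome lay at 52180189 in each WT library without T3. It had no gene within 10 kb, and the authors' fold enrichment over local background was 18.3 to 20.1. In the 3 WT libraries with T3 the cables2 region led by q, at 15.8 to 17.9. The cables2 region also led in 2 TRαKO libraries and 1 TRβKO library with T3, and thra or rara in the others.

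The 5 highest mean levels over the 18 libraries were at the start of the chromosome. The 5 regions assigned to LOC101731736, between 2798 and 15716, held 9.69% of the chromosome's reads in WT and 8.17% with T3, 16.6 and 11% in TRαKO, and 19.2 and 12.3% in TRβKO. Their sum went from 135 ± 6.25 to 167 ± 9.25 CPM in WT, from 188 ± 2.05 to 173 ± 7.92 CPM in TRαKO and from 232 ± 11.7 to 164 ± 10.8 CPM in TRβKO. The region at 12303 had a peak in 17 of 18 libraries, the most on the chromosome. By q it led the peaks of all 6 knockout libraries without T3, with a fold enrichment of 3.71 to 4.32. At that region the log2 T3 effect was 0.45 ± 0.14 in WT (adjusted p = 0.0129) and -0.49 ± 0.13 in TRβKO (adjusted p = 0.00434), a difference of -0.94 ± 0.19 (adjusted p = 0.00112), which held whichever library was left out. The WT effect was lost with TMM (0.26, adjusted p = 0.254), with DESeq2 (0.10) and without WT without T3 replicate 2 (adjusted p = 0.0825) or WT with T3 replicate 1 (0.167) or 3 (0.0602), and the TRβKO effect without TRβKO with T3 replicate 1 (0.0830). Whether reads here come from several near-identical copies was not tested. Without these 5 regions the share of chromosome 10 was lower than in WT by 1.29 points in TRβKO and by 0.563 points in TRαKO. The T3 effect on the share in TRαKO turned to 0.323 points. Without T3 the summed level of these regions was higher in both knockouts than in WT, so leaving them out favours these shifts.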

How the data were processed

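Per the submitters' processing notes, the authors used Bowtie2 2.3.4.1 for alignment, MACS2 2.1.1.20160309 for peaks and DiffBind for counting. The deposited table holds raw counts per region and library, not scaled. Each library's peaks came, per the file headers, from MACS 2.2.7.1 without control, with 1 tag kept per position and a q-value of at most 0.05. The deposited peak lists give the pileup signal at the summit, p-value and q-value as -log10 and fold enrichment, a ratio to local background. The genome build is not given in the sources used here. With gene positions of UCB_Xtro_10.0, 12.4% of chromosome 10 regions lay within 500 bp of a gene end, against 3.82 to 5.72% after shifts. Its gene positions were therefore used to name regions, to place them in or near genes and to count genes. The region coordinates printed here are those of the deposited counts. A region was given the gene it overlaps, or else the nearest within 10 kb. No sequence was used here.

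The table's chromosome code was matched to chromosome 10 through peak starts. The fit used edgeR 4.0.16 (R 4.3.3, limma 3.58.1) on all 18 libraries, with robust quasi-likelihood, 6 group means, tags kept as library size and filterByExpr. DESeq2 1.42.0 was an alternative, with TMM, all tags as depth, no filter, thinning, only the libraries compared, a replicate block and each library left out. SE is the log2 difference over the square root of F. Shares were compared with numpy 2.4.6 in Python 3.11.15. Tables used numpy with pandas 2.3.3 and scipy 1.17.1, and figures matplotlib 3.10.9. The edgeR p-values rest on the spread between libraries of the same group, estimated jointly over the 6 groups. The permutation p-values come from rearranging the labels of the libraries. The fit and the permutation tests were tested on simulated data. Members and gene lists were chosen with earlier results of these data known. The rule names up to 12 higher and 12 lower regions per T3 effect and 6 and 6 per other contrast with the largest change, with a symbol, a mean level of at least 1.75 CPM and groups that do not overlap. The condition on overlap was not set for differences between T3 effects. The rule also names the 10 regions with the highest mean level, every region of thra, rara and nr1d1, and up to 6 genes per list. Regions outside it, such as LOC101731736 as a set, were chosen after their values were seen.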

Additional observations from a re-analysis of the deposited data

Results flagged for a closer look

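The T3 effect in a knockout differed from that in WT at the 10 region and knockout pairs named by the rule for the largest change. The difference was tested itself (edgeR quasi-likelihood, log2 scale ± SE), and further regions passed as well. For TRαKO minus WT it was -3.67 ± 0.36 at cables2, -3.05 ± 0.49 at jup and -3.09 ± 0.51 at nfatc2. It was -3.77 ± 0.77 at smarcd2 and -3.52 ± 0.91 at a second region of narf, a gene of a lamin-binding protein. At pgap3, a gene of GPI-anchor processing, it was -4.59 ± 1.17, where WT held 2 reads without T3 and 36 with T3, so the size depends on those 2 reads. At nol11 it was 3.24 ± 0.83: the region fell in WT and stood at 1.21 ± 0.250 and 2.57 ± 1.36 CPM in TRαKO. For TRβKO minus WT the difference was -2.30 ± 0.39 at cables2, -1.31 ± 0.29 at the leading thra region and -2.91 ± 0.84 at rbm12, a gene of an RNA-binding protein, where WT rose from 1.54 ± 0.159 to 4.4 ± 1.06 CPM and TRβKO stood at 2.47 ± 1.69 and 0.951 ± 0.910 CPM. The rbm12 call was lost when any of 14 libraries was left out. The narf call was lost without TRαKO without T3 replicate 2, and the nol11 call without TRαKO with T3 replicate 2. With every library thinned to the shallowest, the differences at pgap3, smarcd2, narf, nol11, thra and rbm12 no longer passed.

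Reads on unplaced scaffolds and the mitochondrion, which are no members but count in the totals behind the shares, made up 3.58% of region reads in TRβKO with T3 and 1.62% without T3.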

How the results depend on the processing

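In the order T3 effect in WT, TRαKO and TRβKO, then TRαKO and TRβKO against WT without T3, the 2 with T3, and the T3 effect of TRαKO and TRβKO minus WT, the counts of chromosome 10 regions higher and lower were 65 and 6, 59 and 0, 58 and 24, 8 and 11, 10 and 23, 2 and 49, 2 and 49, 8 and 32, 2 and 11. With TMM they were 61 and 9, 29 and 4, 58 and 39, 17 and 4, 15 and 8, 5 and 37, 2 and 15, 5 and 39, 2 and 8. With DESeq2 they were 61 and 15, 28 and 9, 57 and 36, 15 and 6, 17 and 20, 3 and 53, 4 and 13, 3 and 41, 0 and 8. With all tags as depth they were 61 and 15, 63 and 0, 58 and 30, 6 and 23, 7 and 31, 5 and 33, 2 and 31, 20 and 21, 2 and 4. Fitting only the libraries compared moved these by over 1.5 times: falls in TRβKO to 9, lower without T3 to 70 (TRαKO) and 60 (TRβKO), higher with T3 to 1 and 0, lower with T3 in TRβKO to 17, and larger T3 effects in TRβKO to 0. With all libraries thinned to the shallowest, the counts so moved were 1 fall in WT, 34 rises and 1 fall in TRαKO, 12 falls in TRβKO, without T3 2 higher and 0 lower (TRαKO) and 3 and 0 (TRβKO), with T3 1 higher in each and 24 lower in TRβKO, and T3 effects larger at 0 and 0 and smaller at 19 and 5.

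Leaving out 1 library gave, in the same order, 61 to 65 and 2 to 18, 42 to 64 and 0, 53 to 61 and 19 to 28, 5 to 9 and 3 to 18, 5 to 10 and 1 to 27, 2 to 6 and 36 to 50, 1 to 3 and 24 to 49, 4 to 12 and 23 to 32, 0 to 3 and 6 to 10. The cause of these moves was not tested, beyond the fewer reads or libraries of the setting itself.

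The T3 effect on the chromosome 10 share of reads, -0.383 points, was -0.584 without thra, -0.0408 without LOC101731736 and 0.0110 as an unweighted median log2 difference. In WT it was -0.195 without thra, where leaving out risers of chromosome 10 alone favours a lower value. In TRαKO it was 0.311 without the top 1% of regions, 0.323 without LOC101731736 and 0.0623 as an unweighted median. The TRαKO difference from WT was -0.0831 as an unweighted median (exact permutation p = 0.13). Leaving out 1 library gave -0.423 to -0.348, 0.00984 to 0.123 in WT, -0.110 to 0.0670 in TRαKO (0.0670 without TRαKO without T3 replicate 2), -1.28 to -1.06 in TRβKO, -0.327 to -0.239 for TRαKO against WT and -1.01 to -0.898 for TRβKO against WT. The T3 effect on the share of peaks was 0.415 points, 0.223 to 0.610 leaving out 1 library, and -0.186 at -log10 q of at least 5. At that limit the regions with peaks numbered 40 in WT (32 after T3), 6 in TRαKO (64 after T3), and 5 in TRβKO (19 after T3).

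Whether replicate numbers pair the libraries was not settled. Same-number deviations correlated at -0.005 to 0.045 over 45 pairs, and other-number ones at -0.061 to 0.023 over 90. None was over 0.1, but single regions hold few reads, so these values cannot exclude pairing. With a replicate block the counts were 63 and 6, 56 and 0, 58 and 23, 8 and 12, 9 and 17, 2 and 45, 2 and 42, 7 and 28, 2 and 8. Of the results at single named regions, the call was kept at 75 and lost at 15 with TMM, and 76 and 4 with DESeq2. It was kept at 83 and lost at 7 with all tags as depth, and 85 and 5 with the block. When thinned it was 59 and 21, where the 2.29 M tags of the shallowest library limit what can be called. Fewer results were counted with DESeq2 and when thinned. More calls lost with DESeq2 than these 4 are given above, so the counts do not cover every call described.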
